A study of Homo sapiens with 18 samples.

Results

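The EGF receptor family and its ligands were followed as 10 genes, taken by symbol from the 21944 genes listed in the authors' deposited table. There were 4 receptors, *EGFR*, *ERBB2*, *ERBB3* and *ERBB4*, and 6 ligands, *EGF*, *TGFA*, *AREG*, *EREG*, *HBEGF* and *BTC*. All 10 were found. Per unit of length, the ligand gene *AREG* and the receptor gene *EGFR* had the highest levels of the family, *ERBB4*, *EGF*, *BTC* and *EREG* the lowest. The table has rows for the times 3, 6 and 24 h, and 9 of the genes had a row at each time, while *EREG* had a row at 6 h alone.

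The cells were pancreatic progenitors made from human embryonic stem cells, detached at day 19 of differentiation and reseeded on wells coated with fibronectin (FN) or with laminin-411 (LN411), a laminin isoform to which cells adhere weakly. Poly(A) RNA was sequenced 3, 6 or 24 h after reseeding from 3 samples in each of the 6 groups, 18 in all. The labels name HUES4 as the cell line in one field and an SA121-derived line with an NGN3-GFP reporter in another, and the paper gives the reporter line for this experiment. In such bulk values, fewer cells of a type and less RNA per cell cannot be told apart.

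Receptors of this family sit in the plasma membrane and pair when a ligand binds outside the cell, which switches on the tyrosine kinase inside it. EGF, TGFA and AREG bind EGFR, HBEGF, BTC and EREG bind both EGFR and ERBB4, ERBB2 has no known ligand of its own and acts as a partner, and ERBB3 has little kinase activity and signals through its partners. The ligands are made as membrane proteins and are cut free by ADAM proteases. In the pancreas, EGFR signalling is known for growth of the progenitor epithelium, and EGF family proteins have been used in protocols that direct stem cells to pancreatic fates.

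The quantity described here is the mean normalized count, a single value per gene that the authors averaged over samples after scaling each library. It was the same at every time at which a gene was listed, with a largest relative gap of 4.89e-07, so it carries no difference between FN and LN411 or between times. Values per sample were not analysed here, and the fold changes and p-values of the authors were not used. For this reason no change on LN411 is reported, and no value below has an error or a test. To compare genes, each mean was divided by the summed length of the merged exons of the gene, in kilobases, and the result is the level given below. Over the 21861 listed genes with a known length, the median level was 76.2 mean normalized counts per kilobase. Unless stated otherwise, "all genes" and "the median gene" below refer to these, and genes without a row are left out. The means summed to 53217583 over all genes, and the depth of single libraries is unknown.

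Markers of the labelled cell type were present. Of 8 pancreatic progenitor markers, 7 lay above the median gene, with levels of 4969 for *PDX1*, 773.4 for *NKX6-1* and 5259 for *SOX9*. The exception was *PTF1A*, at 7.64. Of 5 endocrine markers 2 lay above it, *NEUROG3* at 289.0 and *CHGA* at 1426. Levels were also high for the hepatic markers *AFP* (8334) and *APOA1* (12420) and for *LIN28A* (2599), a marker of pluripotent cells. *POU5F1* and *NANOG*, which define such cells, were not found by symbol among the listed genes, nor were the immune markers *PTPRC* and *CD68*. Of 3 mesenchymal markers, 2 lay above the median gene, *COL1A1* at 454.2 and *PDGFRA* at 90.9. None of the 3 endothelial markers lay above the median gene. The part of these other cell types in the values below was not tested.

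Of the receptors, *EGFR* had the highest level. *EGFR* (ENSG00000146648) lies on chromosome 7 of GRCh38 from 55019017 to 55211628, on the plus strand. Its mean normalized count in the deposited table was 19840, the largest of the 10 genes, over 15.9 kilobases of merged exons. This gave a level of 1245 per kilobase, 16.3 times the median gene and above 92.3% of all genes. It made up 52.0% of the summed level of the 4 receptors.

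*ERBB2* (ENSG00000141736, chromosome 17, 39687914 to 39730426, plus strand), the partner without a ligand, had a mean normalized count of 6705 and a level of 649.6 per kilobase. *ERBB3* (ENSG00000065361, chromosome 12, 56076799 to 56103505, plus strand) had a mean normalized count of 5577 and a level of 476.2. These levels were close to each other, with a ratio of *ERBB2* to *ERBB3* of 1.36, and stood above 84.4% and 79.1% of all genes. The level of *EGFR* was 1.92 times that of *ERBB2* and 2.61 times that of *ERBB3*, against 3.07 and 3.95 times by coding length.

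*ERBB4* (ENSG00000178568, chromosome 2, 211375717 to 212538841, minus strand) stood apart from the other receptors. It had a mean normalized count of 301.9 and a level of 23.2 per kilobase, which is 0.304 times the median gene and above 33.5% of all genes. The level of *ERBB3*, the next receptor above it, was 20.5 times as high, or 18.01 to 35.7 times with the other lengths and without one, and *ERBB4* made up 0.969% of the summed receptor level.

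**Figure D1:**
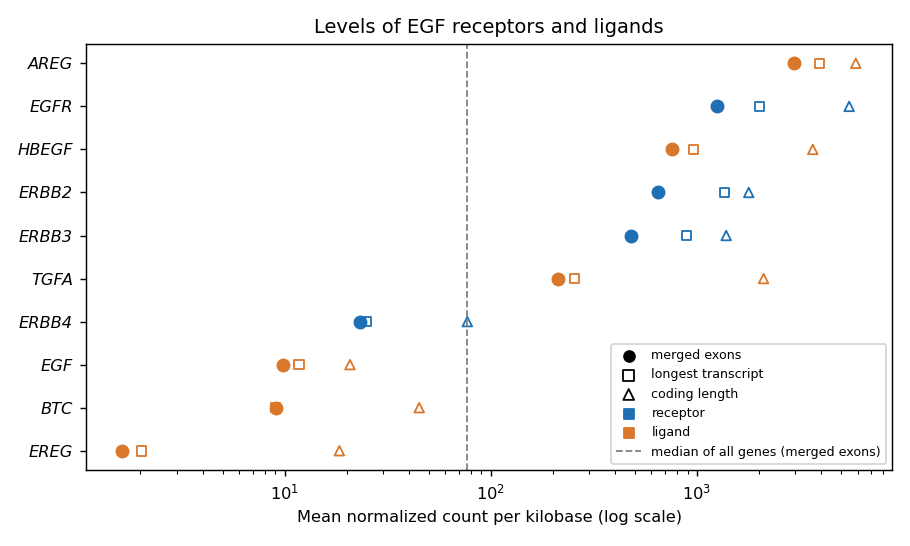
Levels of the 10 genes on a log axis, in mean normalized counts per kilobase, with receptors in blue and ligands in orange. Filled circles use merged exons, open squares the longest transcript and open triangles the coding length. The dashed line is the median level of all genes by merged exons, 76.2, and 6 of the 10 filled circles lie above it. It is not the median for the open symbols. Each point is a pooled mean without an error bar.

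The ligands covered a wider range than the receptors, and 3 of them lay above the median gene and 3 below. *AREG*, which encodes amphiregulin, had the highest level of all 10 genes. *AREG* (ENSG00000109321) lies on chromosome 4 from 74445136 to 74455005 on the plus strand. Its mean normalized count was 4838 over 1.64 kilobases of merged exons, a level of 2946 per kilobase and above 97.2% of all genes. *AREG* alone made up 74.8% of the summed ligand level.

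*HBEGF* (ENSG00000113070, chromosome 5, 140332843 to 140346603, minus strand) encodes heparin-binding EGF-like growth factor and came second among the ligands. Its mean normalized count was 2272 and its level 759.8 per kilobase, above 86.5% of all genes. *TGFA* (ENSG00000163235, chromosome 2, 70447284 to 70554193, minus strand), which encodes transforming growth factor alpha, came next with a mean normalized count of 1047 and a level of 212.9, above 64.9% of all genes. The level of *AREG* was 3.88 times that of *HBEGF* and 13.8 times that of *TGFA*. These ratios were 1.62 and 2.80 by coding length, and 2.13 and 4.62 for the mean normalized counts themselves.

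The other 3 ligands had low levels. *EGF* itself (ENSG00000138798, chromosome 4, 109912883 to 110013766, plus strand) had a mean normalized count of 75.1 and a level of 9.85 per kilobase. *BTC* (ENSG00000174808, chromosome 4, 74744759 to 74794523, minus strand), which encodes betacellulin, had a mean normalized count of 24.0 and a level of 9.05. *EGF* and *BTC* were thus nearly level with each other on this scale, above 20.4% and 19.1% of all genes. *EREG* (ENSG00000124882, chromosome 4, 74365145 to 74388749, plus strand), which encodes epiregulin, was lowest, with a mean normalized count of 9.34 and a level of 1.64, above 2.61% of all genes. The level of *TGFA* was 21.6 times that of *EGF*, and that of *AREG* was 1802 times that of *EREG*. By coding length the same ratios were 101.3 and 319.4, and without a length 13.9 and 517.9.

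**Figure D2:**
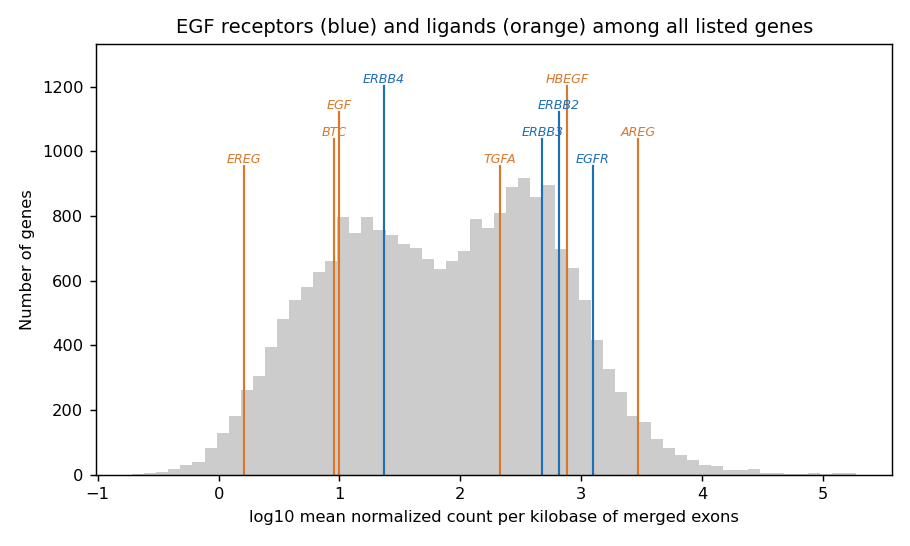
Histogram of the levels of all 21861 genes with a known length, on the log10 scale of mean normalized counts per kilobase, with a line for each receptor in blue and each ligand in orange. *AREG*, *EGFR*, *HBEGF*, *ERBB2* and *ERBB3* lie in the upper part, and *EREG*, *BTC*, *EGF* and *ERBB4* lie below the median of 76.2.

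Ligand genes with very different levels were neighbours in the genome. Of the 6 ligand genes, 4 are on chromosome 4, and *EREG*, *AREG* and *BTC* lie within 429.4 kilobases of each other. *EREG*, the lowest, ends 56.4 kilobases before the start of *AREG*, the highest. *BTC* lies 289.8 kilobases beyond *AREG*, whose level was 325.7 times as high, or 131.0 times by coding length.

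From the highest level to the lowest, the order of the genes was *AREG*, *EGFR*, *HBEGF*, *ERBB2*, *ERBB3*, *TGFA*, *ERBB4*, *EGF*, *BTC* and *EREG*. The widest step between neighbours was that from *TGFA* to *ERBB4*, by 9.18 times, which separates the 6 genes above the median gene from the 4 below it. Without a length this step was 3.47 times and that from *ERBB4* to *EGF* was wider, at 4.02 times, and *ERBB4* then lay at the median, above 50.1% of all genes. By coding length the widest step was that from *ERBB3* to *ERBB4*, by 18.01 times. The step from *BTC* to *EREG* was 5.53 times. By coding length *EGF* lay between these genes, and the level of *BTC* was 2.44 times that of *EREG*. *EGF* and *BTC* had the narrowest step, with a ratio of *EGF* to *BTC* of 1.09, but this ratio was 0.462 by coding length and 3.13 without a length. Without values per sample, whether neighbours in this order differ beyond the spread of samples was not tested.

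*AREG* stood above *EGFR* under each of the 3 lengths and below it without a length. Without a division by length, the mean normalized count of *EGFR* was 4.10 times that of *AREG*. Per kilobase of merged exons, the level of *EGFR* was 0.423 times that of *AREG*, and per kilobase of coding sequence it was 0.929 times as high, with 5467 for *EGFR* and 5886 for *AREG*. Summed per kilobase of merged exons, the receptors reached 2394 and the ligands 3939, a ratio of 0.608. This direction turned without a length, where the ratio was 3.92, and with medians in place of sums, where it was 5.05.

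Some of these genes share exon positions with others, and the sources used here do not say whether counting used the strand. An exon of *EGFR* overlaps the antisense gene *EGFR-AS1*, and exons of *ERBB2* overlap *PGAP3* and *MIEN1* on the opposite strand. *ERBB3* overlaps a gene known by the identifier ENSG00000257411 on its own strand. Reads could have been left uncounted there, and the values of these 3 receptors are uncertain to that extent. The overlaps are those of GENCODE 44, a later release than the authors counted with, and were not checked in the earlier one. No exon overlap was annotated for *ERBB4* or for any of the 6 ligands.

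The other genes of the pathway were taken as 38 genes in 5 groups by role. Of these, 37 were analysed and 33 had a level above the median gene. Among 5 further ligands of the family, which bind ERBB3, ERBB4 or EGFR, 4 were analysed and 1 lay above the median gene. This was *NRG3*, a neuregulin, at 77.4 per kilobase, and *NRG4* was lowest at 8.58. *EPGN* was not found by symbol among the listed genes.

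Proteases that free the ligands, and their partners, had 5 of 6 genes above the median gene. *ADAM10*, a protease that frees EGF and betacellulin, had the highest level of the group at 1836 per kilobase, and *ADAM12* had the lowest at 38.2. All 8 inhibitors and degraders lay above the median gene. They ranged from *LRIG1*, a membrane protein that restrains the receptors, at 79.2 to *ERRFI1*, a cytoplasmic inhibitor of their kinases, at 1553.

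Inside the cell, all 9 genes in a group of adaptors, exchange factors and enzymes that act with them lay above the median gene. They ranged from *PIK3CA*, the catalytic subunit of a lipid kinase, at 93.2 per kilobase to *GRB2*, the adaptor that links the receptors to RAS, at 2260. The 10 genes of RAS proteins and of the kinases from RAF to ERK were all above the median gene as well, from *HRAS* at 133.7 to *NRAS* at 2470. The median level was 526.9 for the group with the adaptors and 492.1 for the RAS to ERK genes, against 24.2 for the further ligands. By construction, 50% of all genes lie above the median gene. That median includes weakly counted genes, and the group results depend on it. When genes with means under 10 were dropped, the median level of the rest was 118.7. *PIK3CA*, *LRIG1*, *NRG3* and *RHBDF2* (107.8 per kilobase) then fell below it, and 29 of the 37 pathway genes stayed above. All RAS to ERK genes were among those 29. The median over all genes also includes non-coding genes, while the pathway genes encode proteins. Among protein-coding genes alone, *TGFA* at 212.9 per kilobase stood above only 51.8%, so the median of such genes lies close to that level. *PIK3CA* and *HRAS*, the lowest of their groups, are under that level. The group counts against that median were not made.

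**Figure D3:**
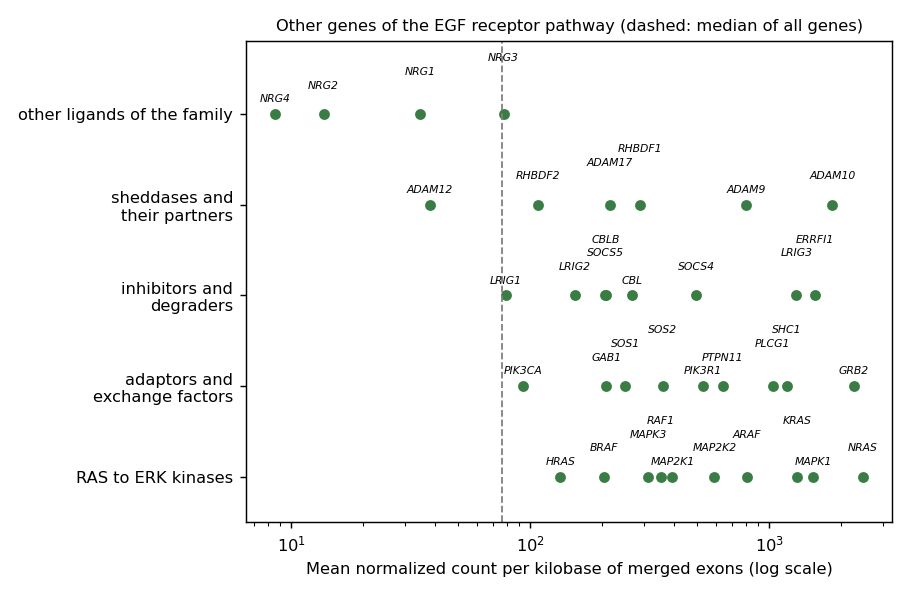
Levels of the 37 other pathway genes analysed, in mean normalized counts per kilobase of merged exons on a log axis, in 5 rows by role. The dashed line is the median of all genes, 76.2. All genes in the rows of adaptors, inhibitors and RAS to ERK kinases lie to its right, while 3 of the 4 further ligands lie to its left.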

How the data were processed

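RNA of 18 samples was sequenced. Per the paper, the authors aligned reads with STAR (version 2.7.2d per the labels) to GRCh38 (hg38), counted reads per gene against GENCODE annotation and used DESeq2 (version 1.34.0 per the labels). The signal analysed is the mean normalized count deposited by the authors, an average of counts divided by size factors. The samples that entered it and the rule for listing a gene at a time are not given in the sources used here. The table's other columns hold the authors' comparisons of LN411 with FN (fold change, its error, a statistic and p-values) and were not used. A planned count test of LN411 against FN required counts per sample. No column held these, so the test was not made and samples were not compared.

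Exons of each gene were merged in GENCODE 44 on GRCh38, a later release than the authors', and matched by Ensembl identifier for all 10 genes and 99.6% of all genes. Levels are means per kilobase of merged exons. A percentile is the percent of genes with a lower level, with ties split evenly. Of other pathway genes, the highest and lowest of each role group are named, beside *EPGN*, for which there is no value. Members and lists were chosen with earlier results of these data known. Alternatives were the longest transcript, the coding length (from the same annotation), no length, other sets of genes, and medians in place of sums. Steps between neighbours and the count of genes above the median under other lengths were added after seeing the data. Calculations used Python 3.11.15, numpy 2.4.6 and pandas 2.3.3, and the functions for percentiles and for merging exons were tested on made-up numbers.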

Additional observations from a re-analysis of the deposited data

How the results depend on the processing

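The summed level of the receptors was 0.608 times that of the ligands, and this ratio became 3.92 without a division by length and 5.05 with medians in place of sums, where *AREG* holds most of the ligand sum. It stayed below 1 with the longest transcript (0.829) and the coding length (0.744). Of the other pathway genes, 33 lay above the median gene, against 25 (coding length) to 35 (no length) over the 4 alternatives. For the coding length, the median was taken over genes with a coding sequence alone, so the reference genes changed along with the length. Without a length, it was taken over all 21944 listed genes. The coding length raised the levels of all 10 genes by more than 1.5 times, among them *TGFA* to 2102 and *EREG* to 18.4, and placed *TGFA* above *ERBB2* and *ERBB3*, and *BTC* above *EGF*. Counts of the whole gene, untranslated parts included, were divided there by the shorter coding length alone, so every level could only rise. The longest transcript placed *ERBB2* (1360) above *HBEGF* (963.5). Without a length, *EGFR*, *ERBB2* and *ERBB3* came first, followed by *AREG*. *ERBB4* was seventh and *EREG* last under each of these lengths. Of 40 percentiles under other settings, 35 stayed within 10 points, and the other 5 were *TGFA* at 51.8 and *ERBB4* at 21.3 among protein-coding genes, and *ERBB4* at 50.1, *EGF* at 37.6 and *ERBB3* at 90.4 without a length. In alternatives chosen after seeing the data, each set against the median of its own setting, 6 of the 10 genes lay above it under each length. Without a length, 7 did. No paired analysis was possible because the table analysed gives 1 pooled mean per gene, and for the same reason no sample was left out in turn. The pooled means give no error, so that the precision of low values such as *EREG* is unknown.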
